A study of Homo sapiens with 16 samples.

Results

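The genes described here are the 71 protein-coding genes whose symbols begin with HIST1H, HIST2H, HIST3H or HIST4H, of 58735 genes listed for 2 human pancreatic ductal adenocarcinoma cell lines. They comprise 6 genes of linker histone H1 and 17 of H2A, 18 of H2B, 15 of H3 and 15 of H4. The HIST1 cluster on chromosome 6 holds 55 of them, HIST2 and HIST3 on chromosome 1 hold 12 and 3, and HIST4H4 stands alone on chromosome 12. A further 19 genes with such symbols carry another biotype in the tables and were left out. Poly-A-enriched RNA was sequenced from BxPC3 and PANC-1, each 1 established line and thus 1 genotype, as untreated control and after gemcitabine, with 4 libraries in each of the 4 groups. No dose, no treatment time and no statement on separate cultures is given in the labels, so each p-value reflects the spread between these libraries, and that spread may be technical.

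Histones H2A, H2B, H3 and H4 form the nucleosome core around which DNA is wrapped, and H1 binds the DNA that enters and leaves it. The cluster genes are the replication-dependent histone genes, which are transcribed mainly in S phase, have for the most part no introns, and give mRNAs that end in a stem-loop in place of a poly-A tail. Stem-loop binding protein (SLBP) holds that structure during processing, and the mRNAs are degraded quickly when DNA synthesis stops. Gemcitabine is a deoxycytidine analogue that inhibits ribonucleotide reductase and halts DNA chains. Some cluster genes also give polyadenylated transcripts, and a poly-A-enriched library holds mainly these. The levels below therefore describe the polyadenylated part of the histone mRNA, and the total mRNA was not measured.

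Levels are FPKM (fragments per kilobase of gene model, scaled by library, as deposited), given as the mean ± SD over 4 libraries, and "log2 change" is the difference of mean log2(FPKM + 1), which understates the change of low genes. The libraries held 22152034 to 37777222 reads in listed genes, and 3 reads on a model of 1 kb equal 0.0803 to 0.138 FPKM. The histone genes took 0.0278% to 0.0295% of the reads in BxPC3 controls and 0.0469% to 0.0485% with gemcitabine. In PANC-1 they took 0.0219% to 0.0235% in controls and 0.0157% to 0.0169% with gemcitabine. PANC-1 gemcitabine replicate 1, the library with the fewest reads, stood apart from the other 3 of its group for several of these genes, and values without it are given beside the genes, sums and counts where it did. Each line has a separately scaled table, so levels of the 2 lines are set side by side without a test. SMAD4, which BxPC3 is known to lack, had 0 reads in BxPC3 and stood at 3.84 FPKM in PANC-1 controls. The epithelial keratins KRT8 and KRT18 stood at 115 to 360.1 and 128 to 282 FPKM across the group means. KRT7 was high in BxPC3 controls (454 FPKM) but only 0.530 FPKM in PANC-1 controls, so that this ductal marker was nearly absent there. KRT19 and EPCAM, also searched as ductal markers, stood at 93.4 and 17.5 FPKM in PANC-1 controls and 227 and 17.1 FPKM with gemcitabine. In BxPC3 they stood at 1841 and 53.1 FPKM in controls and 1327 and 66.4 FPKM with gemcitabine. Of the 12 markers of other cell types searched, PTPRC (leukocytes), DCN, COL1A2 and PDGFRB (fibroblasts) and CD68 (macrophages) stayed at or below 0.155 FPKM in every group mean, and CD3E stood at 0.332 FPKM in BxPC3 controls and had 0 reads in PANC-1. The 4 immune markers summed to 6.90 to 8.14 FPKM in BxPC3 controls and 6.88 to 8.24 FPKM with gemcitabine, nearly all of it CD14, and to 0.943 to 1.25 and 2.27 to 3.99 FPKM in PANC-1. The 5 fibroblast markers, mainly COL1A1 and COL3A1, summed to 6.15 to 7.03 and 3.54 to 4.01 FPKM in BxPC3 and to 11.5 to 12.5 and 7.81 to 11.6 FPKM in PANC-1. The 3 endothelial markers summed to 1.38 to 1.61 and 5.60 to 6.29 FPKM in BxPC3, where CDH5 went from 0.603 to 5.76 FPKM while PECAM1 went from 0.756 to 0.132 and VWF from 0.151 to 0.112 FPKM, and stayed at or below 0.0821 FPKM in PANC-1. The part of these markers in the histone results was not tested.

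The 3' stem-loop is the sequence that sets these mRNAs apart, and it is shown for the 2 genes with the highest group mean of each class whose annotated transcript (GENCODE 29, GRCh38) holds it. A script searched the transcripts on the sense strand for the histone 3' stem-loop consensus of 16 bases. It was found in 32 of the 71 genes, and in 18 of 19631 other protein-coding genes (0.0917%). A model of the coding sequence alone, as 33 of the 71 genes have, leaves out the 3' end and cannot hold it. The capitals mark the 2 arms that pair and the lower-case letters the loop.
HIST1H2AC: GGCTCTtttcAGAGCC
HIST3H2A: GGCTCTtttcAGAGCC
HIST1H2BD: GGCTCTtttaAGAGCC
HIST2H2BE: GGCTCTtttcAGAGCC
HIST1H3H: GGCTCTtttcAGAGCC
HIST1H3E: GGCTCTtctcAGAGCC
HIST1H4I: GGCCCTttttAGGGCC
HIST1H4H: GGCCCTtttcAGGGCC
The pair of H4 genes shared one stem, which differs from the stem shared by the H2A, H2B and H3 genes of this list. No H1 gene is shown because no annotated H1 transcript held a match, and the model of HIST1H2BK, the highest gene, holds its coding sequence alone.

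In BxPC3, 14 of the 18 histone genes tested were called higher with gemcitabine, where 37.3% of all genes tested were. In PANC-1, 2 of the 13 tested were called higher and 5 lower, where 20.7% and 24% of all genes tested were. The summed level of all 71 genes was 381 ± 14.5 FPKM in BxPC3 controls and 648 ± 32.2 FPKM with gemcitabine, 1.70 times the control. In PANC-1 the sum was 344 ± 18.6 FPKM in controls and 234 ± 24.4 FPKM with gemcitabine, 0.680 times the control. In each line the 4 gemcitabine libraries lay wholly on 1 side of the 4 controls. HIST1H2BK alone supplied most of these sums. Without it they were 177 ± 10.5 and 301 ± 10.2 FPKM in BxPC3 and 119 ± 2.67 and 94.9 ± 1.08 FPKM in PANC-1, again without overlap between the groups. Without PANC-1 gemcitabine replicate 1 the PANC-1 sum with gemcitabine was 0.645 of the control. In RNA from whole cultures, fewer cells that express a gene and less RNA per cell cannot be told apart.

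**Figure D1:**
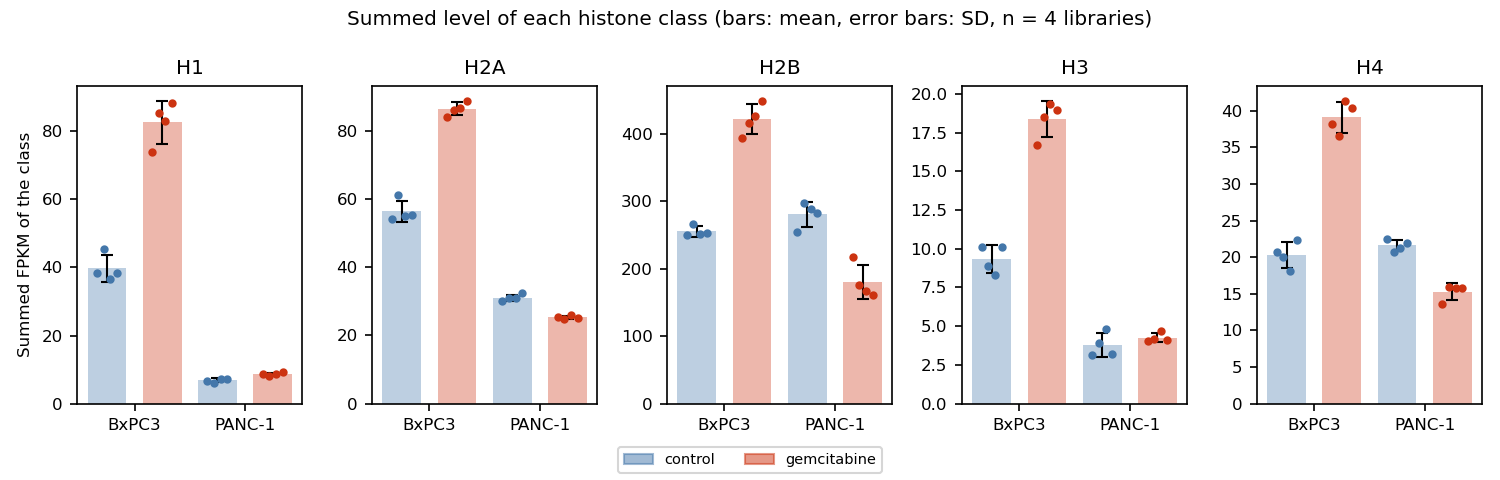
Summed FPKM of the genes of each histone class (vertical axes, 1 panel per class, each with its own scale starting at 0) in BxPC3 and PANC-1, control in blue and gemcitabine in red; bars are means, error bars the SD over 4 libraries, and points the libraries. All 5 classes lie higher with gemcitabine in BxPC3, while in PANC-1 H2A, H2B and H4 lie lower, H1 lies higher and the H3 libraries overlap.

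By class, the sums in BxPC3 with gemcitabine were 2.08 times the control for H1, 1.53 for H2A, 1.65 for H2B, 1.97 for H3 and 1.93 for H4. The gemcitabine libraries lay above all controls in each of the 5 classes. In PANC-1 the same ratios were 1.25 for H1, 0.815 for H2A, 0.643 for H2B, 1.13 for H3 and 0.707 for H4. There the H1 libraries lay above the controls, those of H2A, H2B and H4 lay below, and those of H3 overlapped. Without gemcitabine replicate 1 they were 1.25, 0.814, 0.598, 1.15 and 0.733 for H1, H2A, H2B, H3 and H4. H2B was the largest class in each line, with 67.0% of the summed FPKM in BxPC3 controls and 81.6% in PANC-1 controls. These sums are descriptions, since 1 gene supplied most of H1, H2A, H2B and H4. HIST1H3H also supplied 52.0% of H3 in BxPC3 with gemcitabine.

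Of the 18 histone genes that reached 1 FPKM in at least 4 BxPC3 libraries, 14 were higher with gemcitabine, 1 was lower and 3 were not called at a limma adjusted p under 0.05, where of all 12215 genes tested 37.3% were higher and 36.1% lower, 73.4% in all. Of those 18, the 14 that reached 1 FPKM in all 8 libraries split into 10 higher, 1 lower and 3 not called. Of the other 4, HIST1H3C and HIST1H2BO reached 1 FPKM in no control library and HIST1H3B in 1, so these 3 were tested because of their gemcitabine libraries, whereas HIST2H3D reached it in 3 controls. The median log2 change of the 18 was 0.84, and that of all genes tested was 0.00443. In 11 of the 18 all gemcitabine libraries lay above all controls, and in 1 all lay below, where 34.3% and 33.2% of all genes tested did so, 67.5% in all. The median and the 11 include HIST1H3C and HIST1H2BO, tested because of their gemcitabine libraries, and the median also includes HIST1H3B. The filter thus favoured a rise in these genes, and neither value was computed over the 14 alone. Of the 53 histone genes not tested, 44 had reads in some library of either line. In BxPC3 the gemcitabine mean was the higher one in 37 of these 44 and the lower one in 5, and 2 had no read in that line. The same shares over all untested genes were not computed.

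Of the 13 histone genes tested in PANC-1, 2 were higher and 5 lower with gemcitabine and 6 were not called, where of all 12508 genes tested 20.7% were higher and 24% lower, 44.8% in all. The higher genes were HIST1H1C and HIST2H2BE, and the lower ones HIST1H2BK, HIST1H2AC, HIST1H2BD, HIST1H4I and HIST1H2AE. Of the 58 not tested, 49 had reads in some library of either line. In PANC-1 the gemcitabine mean was the higher one in 33 of these 49 and the lower one in 13, and 3 had no read in that line. Many of these genes held few reads, and here too the shares over all untested genes were not computed. The median log2 change of the 13 was -0.17, and that of all genes tested -0.02. The 7 called genes were also the 7 whose groups did not overlap, where 21.3% of all genes tested lay wholly above and 24.5% wholly below, 45.8% in all. Without gemcitabine replicate 1 the counts were 2 higher and 6 lower, with HIST3H2A added to the lower ones. Leaving out control replicate 2 or gemcitabine replicate 4 ended both higher calls, and leaving out control replicate 1 or gemcitabine replicate 3 ended that of HIST2H2BE.

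The difference between the changes in the 2 lines was tested as an interaction over all 16 libraries, since levels of separately scaled tables cannot be tested against each other. It was called for 17 of 19 histone genes tested, where 51.8% of all 14134 genes tested were called. In 16 of the 17 the PANC-1 change lay below the BxPC3 change, where 26.6% of all genes tested did so, and in 1, HIST1H3E, it lay above, where 25.2% did so. Of the 19, 7 passed the filter of 1 line alone, and all 7 were called: HIST1H2AI, HIST1H2AE, HIST1H2BO, HIST1H3B, HIST1H3C, HIST1H3E and HIST2H3D. Of all 3464 genes that passed in fewer than both lines, 58.2% were called, 28.4% with the PANC-1 change below and 29.8% with it above. Where a gene is nearly unread in 1 line, as HIST1H2AE in BxPC3 and HIST1H3C and HIST2H3D in PANC-1, the difference restates the change in the line that expresses it. Among the 12 genes tested in both lines 10 were called, all with the PANC-1 change below, where 49.7% of the 10670 genes tested in both lines were called and 26.0% lay below. On the recovered reads with limma-voom 12 of the 19 lay below and 0 above, with HIST1H2AI, HIST1H2AE, HIST1H3B, HIST2H3D and HIST1H3E lost, all from the 7. Of the 12, 3 were higher in BxPC3 and lower in PANC-1 (HIST1H2BK, HIST1H2AC and HIST1H4I), and HIST1H1C was higher in both. A further 5 were higher in BxPC3 and not called in PANC-1. Without PANC-1 gemcitabine replicate 1 the difference was lost for HIST1H3B and HIST2H3D and gained for HIST2H2BE. Those of HIST1H3B and HIST2H3D were each lost on leaving out 11 and 9 of the 16 libraries in turn.

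**Figure D2:**
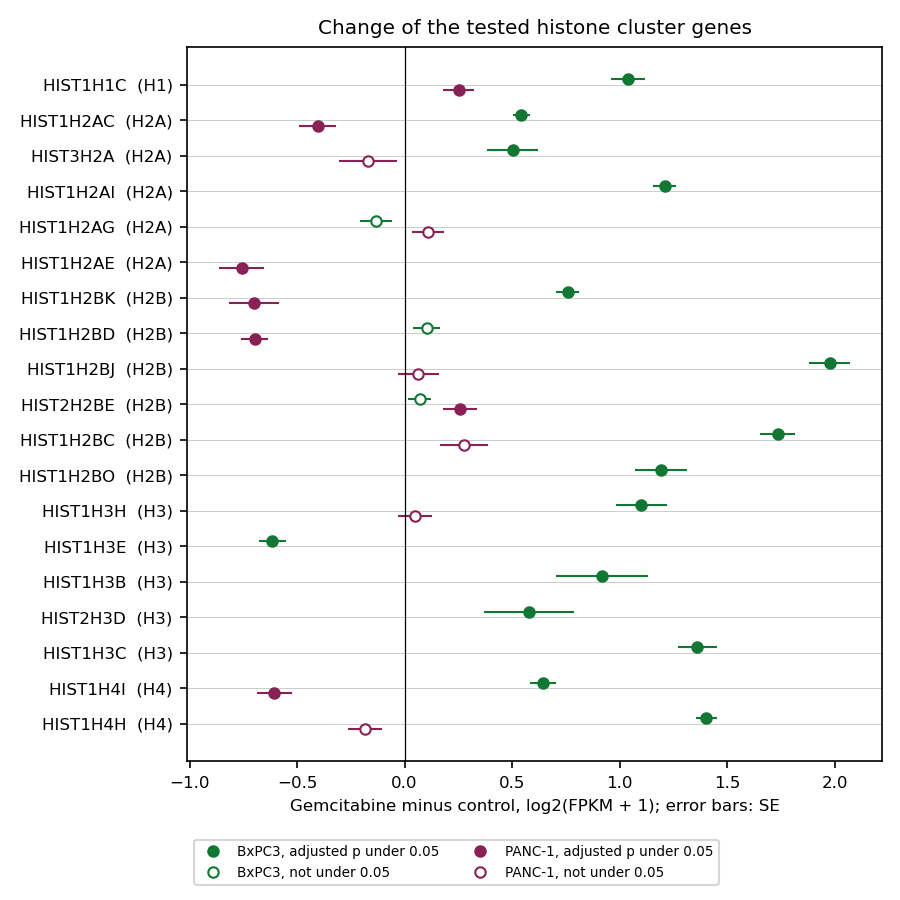
Change of each tested histone gene with gemcitabine, as the difference of mean log2(FPKM + 1) on the horizontal axis with its SE, BxPC3 in green and PANC-1 in purple; filled points passed a limma adjusted p under 0.05 and open points did not. The BxPC3 points lie mostly to the right of 0, with HIST1H3E to the left, and the PANC-1 points of HIST1H2AE, HIST1H2BK, HIST1H2BD, HIST1H4I and HIST1H2AC lie to the left.

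Linker histone H1 was represented almost wholly by HIST1H1C (chromosome 6, 26055787 to 26056428, GRCh38), whose protein binds linker DNA and compacts chromatin. It supplied 97.8% of the summed H1 level in BxPC3 and at least 95.5% in PANC-1. In BxPC3 it stood at 37.5, 44.6, 35.5 and 37.7 FPKM in control replicates 1 to 4 and at 71.3, 84.1, 81.8 and 86.1 FPKM with gemcitabine. All gemcitabine values lay above all controls. HIST1H1C rose 2.08-fold, with a log2 change of 1.04 (SE 0.08, limma adjusted p = 1.13e-06). Within PANC-1 it stood far lower, at 6.73, 6.05, 7.15 and 7.27 FPKM in controls and 8.03, 7.93, 8.12 and 9.00 FPKM with gemcitabine. These groups did not overlap either, and the gene rose 1.22-fold, with a log2 change of 0.25 (SE 0.07, limma adjusted p = 0.0181). That call was lost without control replicate 2 (limma adjusted p = 0.0531) or gemcitabine replicate 4 (limma adjusted p = 0.0545). The difference between lines was -0.79 (SE 0.11, limma adjusted p = 1.87e-05). The somatic H1 genes HIST1H1E, HIST1H1B and HIST1H1D had 25, 31 and 22 reads over the 4 BxPC3 controls and 80, 55 and 34 over the gemcitabine libraries. HIST1H1E took 40 of its 80 from gemcitabine replicate 4, and HIST1H1D took 19 of its 34 from replicate 1. HIST1H1A, also somatic, had 1 and 0 reads in these groups, and HIST1H1T, the linker histone of the testis, had 1 and 3.

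Among the H2A genes, HIST1H2AC (chromosome 6, 26124145 to 26139116) was the highest and supplied 59.9% of the class in BxPC3 controls and 56.7% in PANC-1 controls. Its protein is a core H2A, which pairs with H2B in the nucleosome. In BxPC3 it stood at 33.1, 36.0, 33.1 and 32.9 FPKM in controls and 51.1, 49.2, 49.3 and 48.6 FPKM with gemcitabine. The groups did not overlap, and HIST1H2AC rose 1.47-fold, with a log2 change of 0.54 (SE 0.04, limma adjusted p = 7.94e-07). Within PANC-1 it stood at 17.7, 17.1, 17.5 and 18.2 FPKM in controls and 10.8, 13.9, 14.4 and 13.4 FPKM with gemcitabine. There every gemcitabine value lay below every control, and the gene fell to 0.746 of its control level, with a log2 change of -0.40 (SE 0.09, limma adjusted p = 0.00489). Without gemcitabine replicate 1 the log2 change was -0.32 (limma adjusted p = 1.87e-05). Its difference between lines was -0.95 (SE 0.10, limma adjusted p = 5.77e-07).

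HIST3H2A (chromosome 1, 228456979 to 228457873), the H2A gene of the small HIST3 cluster, was the second in level. In BxPC3 it stood at 12.3, 17.9, 13.8 and 13.4 FPKM in controls and 17.3, 19.7, 21.8 and 24.1 FPKM with gemcitabine, and control replicate 2 reached into the gemcitabine range. It rose 1.44-fold, with a log2 change of 0.50 (SE 0.12, limma adjusted p = 0.00348). In PANC-1 its controls were at 5.62, 6.93, 6.74 and 5.98 FPKM and its gemcitabine libraries at 7.66, 4.85, 4.95 and 4.86 FPKM. Gemcitabine replicate 1 was the highest of the 8 and the other 3 were the lowest. With all libraries it was not called (log2 change of -0.17, SE 0.13, limma adjusted p = 0.340), and without that replicate it was lower, with a log2 change of -0.31 (limma adjusted p = 0.00109).

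HIST1H2AI had most of its reads in BxPC3, and HIST1H2AE nearly all in PANC-1. HIST1H2AI stood at 2.98, 2.69, 2.62 and 2.77 FPKM in BxPC3 controls and 8.39, 7.91, 7.31 and 7.25 FPKM with gemcitabine, a 2.79-fold rise without overlap (log2 change of 1.21, SE 0.05, limma adjusted p = 2.46e-08). PANC-1 controls held 23 reads of it (0.156, 0.318, 0.254 and 1.13 FPKM), with replicate 4 the highest, and gemcitabine libraries held 48 (1.10, 0.747, 0.935 and 0.803 FPKM). HIST1H2AE, on the contrary, had 0 reads in BxPC3 controls and 2 reads with gemcitabine. Levels in PANC-1 were 2.85, 2.75, 3.01 and 3.91 FPKM in controls and 1.27, 1.34, 1.31 and 1.83 FPKM with gemcitabine, without overlap, and HIST1H2AE fell to 0.459 of its control level (log2 change of -0.76, SE 0.11, limma adjusted p = 0.000438). The difference between lines of HIST1H2AI was -0.80 (SE 0.19, limma adjusted p = 0.00274), and it was lost on the recovered reads (limma-voom adjusted p = 0.694) and with a pseudocount of 0.1 (limma adjusted p = 0.543). Of the 50-base stretches of HIST1H2AI, 62.3% also occur in another histone gene, so the division of reads among these copies is uncertain.

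HIST1H2AG did not pass the test in either line. It stood at 3.72, 3.25, 3.91 and 4.52 FPKM in BxPC3 controls and 3.21, 3.48, 3.31 and 3.65 FPKM with gemcitabine, with overlapping groups (log2 change of -0.13, SE 0.07, limma adjusted p = 0.136). Without control replicate 2 it was called lower (limma adjusted p = 0.0179). The PANC-1 values were 2.13, 2.08, 1.78 and 2.06 FPKM in controls and 2.25, 2.63, 2.07 and 2.04 FPKM with gemcitabine (log2 change of 0.11, SE 0.07, limma adjusted p = 0.270). HIST2H2AC and HIST1H2AL were too low for the test, and in BxPC3 their gemcitabine libraries lay above all controls, with 77 against 13 reads and 59 against 10 reads over 4 libraries each. HIST2H2AC stood at 0, 0.444, 0.236 and 0.275 FPKM in BxPC3 controls and 1.88, 1.89, 0.842 and 1.27 FPKM with gemcitabine, and HIST1H2AL at 0.364, 0.0734, 0.156 and 0.204 FPKM and 0.856, 1.23, 1.25 and 1.19 FPKM. Within PANC-1 HIST2H2AC stood at 0.101, 0.410, 0.218 and 0.208 FPKM and 0.944, 0.350, 0.503 and 0.159 FPKM, with overlap. HIST1H2AL had 1 read in PANC-1 controls and 4 reads with gemcitabine, all 4 in replicate 4.

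HIST1H2BK (chromosome 6, 27146418 to 27146798), a core H2B gene, was the highest histone gene in all 4 groups and moved in opposite directions in the lines. It supplied 80.0% of the summed H2B level in BxPC3 controls and 80.1% in PANC-1 controls. In BxPC3 it stood at 200.0, 212, 205 and 202 FPKM in controls and 320.1, 340.5, 355 and 373 FPKM with gemcitabine, all above the controls. It rose 1.70-fold, with a log2 change of 0.76 (SE 0.05, limma adjusted p = 6.14e-07), and its rank among all genes went from 176 to 195 in the controls to 77 or 78. Within PANC-1 it stood at 201, 242, 231 and 227 FPKM in controls and 175, 134, 126 and 121 FPKM with gemcitabine. All 4 gemcitabine values lay below the controls, with replicate 1 the nearest to them. The gene fell to 0.618 of its control level, with a log2 change of -0.70 (SE 0.12, limma adjusted p = 0.00121), and its rank went from 92 to 118 in the controls to 161 to 240. The lines differed by -1.46 (SE 0.13, limma adjusted p = 1.62e-07). Without gemcitabine replicate 1 the log2 change was -0.82 (limma adjusted p = 2.50e-06).

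The model of HIST1H2BK in the tables is its 381-base coding sequence, 22.6% of whose 50-base stretches occur in another histone gene. RefSeq draws a longer gene (27138293 to 27146858) that holds HIST1H4I on the opposite strand. Whether reads were counted by strand is not given in the sources used here, and the part this plays in the like movement of the 2 genes was not tested.

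HIST1H2BD (chromosome 6, 26158146 to 26171349) was the second H2B gene in each line. In BxPC3 it stood at 32.2, 35.6, 30.2 and 33.4 FPKM in controls and 34.6, 35.4, 32.6 and 38.8 FPKM with gemcitabine, with overlapping groups, and was not called (log2 change of 0.10, SE 0.06, limma adjusted p = 0.161). With TPM scaling it was called higher, at a log2 change of 0.19 (limma adjusted p = 0.00458), and also without control replicate 2 (limma adjusted p = 0.0496). Levels in PANC-1 were 40.6, 42.9, 44.6 and 41.8 FPKM in controls and 27.4, 25.6, 26.8 and 23.4 FPKM with gemcitabine. These groups lay well apart, and the gene fell to 0.608 of its control level (log2 change of -0.70, SE 0.06, limma adjusted p = 3.43e-05). Between the lines its change differed by -0.80 (SE 0.09, limma adjusted p = 2.34e-06).

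HIST1H2BJ and HIST1H2BC had the highest folds among the H2B genes with at least 1 FPKM in all BxPC3 libraries. HIST1H2BJ (chromosome 6, 27125897 to 27132750) stood at 1.92, 3.07, 2.46 and 2.31 FPKM in controls and 12.9, 13.3, 12.7 and 11.0 FPKM with gemcitabine, a 5.12-fold rise (log2 change of 1.98, SE 0.10, limma adjusted p = 4.49e-08). HIST1H2BC (chromosome 6, 26114873 to 26123926) stood at 2.53, 1.69, 2.02 and 2.38 FPKM in controls and 9.57, 9.98, 9.37 and 8.89 FPKM with gemcitabine, a 4.39-fold rise (log2 change of 1.74, SE 0.08, limma adjusted p = 3.32e-08). Neither gene's groups overlapped in BxPC3. Within PANC-1 HIST1H2BJ stood at 3.22, 3.41, 4.21 and 4.61 FPKM in controls and 3.97, 4.32, 3.88 and 4.02 FPKM with gemcitabine (log2 change of 0.06, SE 0.09, limma adjusted p = 0.629). HIST1H2BC stood there at 3.34, 3.55, 2.75 and 3.55 FPKM and 4.42, 5.24, 3.48 and 3.80 FPKM (log2 change of 0.28, SE 0.11, limma adjusted p = 0.0751). Both overlapped and were not called in PANC-1, but HIST1H2BC was called higher without gemcitabine replicate 3 (limma adjusted p = 0.0392). The differences between lines were -1.92 (SE 0.14, limma adjusted p = 1.36e-08) and -1.46 (SE 0.14, limma adjusted p = 4.21e-07).

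HIST2H2BE (chromosome 1, 149884459 to 149886652), an H2B gene of the HIST2 cluster, behaved otherwise. In BxPC3 it stood at 11.1, 12.4, 10.2 and 11.0 FPKM in controls and 12.5, 11.4, 11.4 and 11.6 FPKM with gemcitabine, overlapped and was not called (log2 change of 0.07, SE 0.06, limma adjusted p = 0.284). It was called higher with TPM scaling (limma adjusted p = 0.0243) and without control replicate 2 (limma adjusted p = 0.0378). The PANC-1 values were 2.40, 2.10, 2.75 and 2.55 FPKM in controls and 2.77, 2.99, 3.41 and 3.31 FPKM with gemcitabine. There it rose 1.27-fold without overlap (log2 change of 0.26, SE 0.08, limma adjusted p = 0.0263), a call lost without control replicate 1 or 2 or gemcitabine replicate 3 or 4 (limma adjusted p from 0.0658 to 0.0751). Its difference between lines was not called (limma adjusted p = 0.126).

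The other H2B genes were low. HIST1H2BO stood at 0.563, 0.0757, 0.161 and 0 FPKM in BxPC3 controls and 1.61, 1.72, 1.81 and 1.69 FPKM with gemcitabine, with 9 and 86 reads in all, and rose (log2 change of 1.19, SE 0.12, limma adjusted p = 9.33e-06). Within PANC-1 it stood at 0.618, 0.840, 0.892 and 0.320 FPKM and 1.21, 0.896, 0.720 and 1.63 FPKM, overlapping and not tested. HIST1H2BG was nearly confined to PANC-1, at 0.845, 0.783, 0.554 and 0.582 FPKM in controls and 1.59, 0.935, 0.997 and 0.972 FPKM with gemcitabine, against 2 reads in either BxPC3 group. The highest of these values was again that of PANC-1 gemcitabine replicate 1. HIST2H2BF, at 0.894, 0.514, 0.711 and 0.787 FPKM in BxPC3 controls, stood at 1.26, 0.987, 1.23 and 1.12 FPKM with gemcitabine, above all controls and under the limit for the test. Within PANC-1 HIST2H2BF overlapped, at 0.221, 0.138, 0.253 and 0.267 FPKM and 0.274, 0.224, 0.208 and 0.360 FPKM.

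The H3 genes together stayed under 20 FPKM, and in BxPC3 they went both ways. HIST1H3H (chromosome 6, 27810064 to 27811300), a core H3 gene, was the highest, at 3.81, 5.06, 2.88 and 4.16 FPKM in BxPC3 controls and 8.63, 9.19, 10.1 and 10.3 FPKM with gemcitabine. The groups did not overlap, and it rose 2.40-fold (log2 change of 1.10, SE 0.12, limma adjusted p = 1.52e-05). Levels in PANC-1 were 0.857, 1.36, 1.24 and 1.28 FPKM in controls and 1.26, 1.24, 1.27 and 1.21 FPKM with gemcitabine, and the gene was not called (log2 change of 0.05, SE 0.08, limma adjusted p = 0.667). The lines differed by -1.05 (SE 0.15, limma adjusted p = 2.59e-05).

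HIST1H3E (chromosome 6, 26224199 to 26227473) was the histone gene called lower in BxPC3. It stood at 3.19, 3.09, 3.61 and 3.22 FPKM in controls and 1.81, 1.91, 1.95 and 1.50 FPKM with gemcitabine, all below the controls. It fell to 0.548 of its control level (log2 change of -0.62, SE 0.06, limma adjusted p = 1.05e-05). The PANC-1 values were 0.733, 0.672, 1.09 and 0.803 FPKM in controls and 0.429, 0.714, 0.776 and 0.626 FPKM with gemcitabine, with overlap, and were too low for the test in that line. Between the lines its change differed by 0.46 (SE 0.11, limma adjusted p = 0.00325). This difference was lost on the recovered reads with limma-voom (adjusted p = 0.0649) and with a pseudocount of 0.1 (limma adjusted p = 0.0681).

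HIST1H3C and HIST1H3B reached 1 FPKM mainly in gemcitabine libraries of BxPC3, and HIST2H3D in 3 of its 4 controls and in all 4 gemcitabine libraries. HIST1H3C had 0, 1, 1 and 1 reads in BxPC3 controls and 17, 24, 23 and 30 reads with gemcitabine, and rose (log2 change of 1.36, SE 0.09, limma adjusted p = 4.05e-07). PANC-1 held 0, 1, 0 and 2 reads of it in controls and 2, 4, 4 and 5 with gemcitabine. HIST1H3B stood at 1.04, 0.210, 0.448 and 0.782 FPKM in BxPC3 controls and 1.04, 2.14, 2.88 and 2.27 FPKM with gemcitabine, touching at the lowest gemcitabine value, and rose (log2 change of 0.92, SE 0.21, limma adjusted p = 0.00357). Within PANC-1 it stood at 0.955, 0.876, 1.76 and 0.296 FPKM and 1.12, 1.33, 0.954 and 0.907 FPKM, overlapping. HIST2H3D stood at 1.39, 0.281, 1.04 and 1.11 FPKM in BxPC3 controls and 2.75, 2.07, 1.36 and 1.42 FPKM with gemcitabine, with overlapping groups (log2 change of 0.58, SE 0.21, limma adjusted p = 0.0318). The call for HIST2H3D was lost without control replicate 2 or 3 or gemcitabine replicate 1 or 2 (limma adjusted p from 0.0503 to 0.0759), and 80.4% of its 50-base stretches occur in another histone gene. Within PANC-1 HIST2H3D had 0, 2, 2 and 2 reads in controls and 0, 0, 3 and 2 with gemcitabine.

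All H4 genes but HIST1H4G are known to encode the same protein, and 2 of them carried the class. HIST1H4I (chromosome 6, 27138588 to 27139881) stood at 15.2, 15.2, 13.3 and 15.6 FPKM in BxPC3 controls and 22.6, 22.5, 24.1 and 25.7 FPKM with gemcitabine. It rose 1.60-fold without overlap (log2 change of 0.64, SE 0.06, limma adjusted p = 5.28e-06). Levels in PANC-1 were 19.2, 17.3, 17.9 and 18.8 FPKM in controls and 9.99, 13.0, 12.0 and 11.9 FPKM with gemcitabine, all below the controls. It fell to 0.640 of its control level (log2 change of -0.61, SE 0.08, limma adjusted p = 0.000341), and its difference between lines was -1.25 (SE 0.10, limma adjusted p = 5.32e-08). Without gemcitabine replicate 1 the log2 change was -0.54 (limma adjusted p = 1.79e-06).

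HIST1H4H (chromosome 6, 26277609 to 26285638) had the smallest adjusted p of the histone genes in BxPC3. It stood at 3.09, 3.17, 2.74 and 3.02 FPKM in BxPC3 controls and 9.93, 9.01, 9.59 and 9.84 FPKM with gemcitabine, a 3.19-fold rise without overlap (log2 change of 1.40, SE 0.05, limma adjusted p = 4.26e-09). The PANC-1 values were 2.25, 2.44, 2.30 and 2.36 FPKM in controls and 1.60, 1.86, 2.34 and 2.01 FPKM with gemcitabine, with overlapping groups (log2 change of -0.18, SE 0.08, limma adjusted p = 0.0891). It was called lower there without gemcitabine replicate 3 (limma adjusted p = 0.0274). Its difference between lines was -1.59 (SE 0.09, limma adjusted p = 6.92e-10). Without HIST1H4I, the log2 ratio of the summed H4 level was 1.49 in BxPC3 and 0.10 in PANC-1, so the lower H4 sum of PANC-1 rested on HIST1H4I. HIST4H4 was too low for the test, at 0.568, 0.548, 0.405 and 0.613 FPKM in BxPC3 controls and 1.42, 1.29, 1.35 and 0.861 FPKM with gemcitabine, above all controls. Within PANC-1 it overlapped, at 0.183, 0.0931, 0.0495 and 0.126 FPKM and 0.178, 0.106, 0.106 and 0.0844 FPKM.

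**Figure D3:**
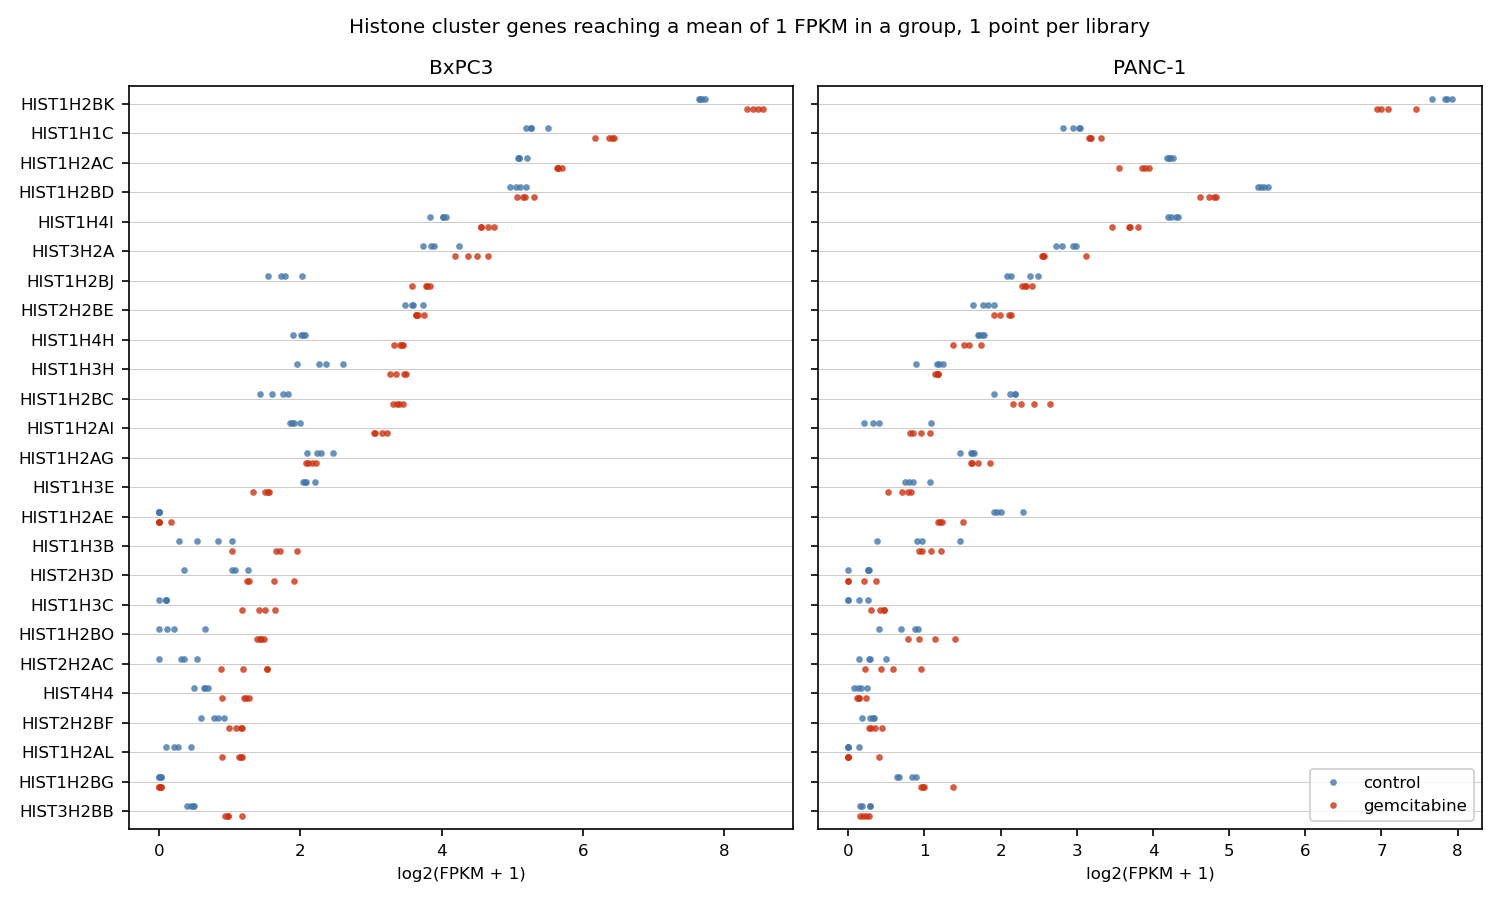
log2(FPKM + 1) on the horizontal axis for the 25 histone genes with a mean of at least 1 FPKM in a group, 1 point per library, control in blue and gemcitabine in red, BxPC3 left and PANC-1 right (the 2 panels have axes of their own). HIST1H2BK lies highest in each line, and in PANC-1 its gemcitabine points lie to the left of its controls while in BxPC3 they lie to the right.

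Of the 71 genes, 25 reached a mean of 1 FPKM in a group, 37 had reads but stayed at or below 0.947 FPKM, and 9 had 0 reads in all 16 libraries. The unread genes were HIST1H2AA, HIST1H2AD, HIST1H2AK, HIST1H2AM, HIST1H2BA, HIST1H3D, HIST1H4F, HIST1H4G and HIST2H3PS2. HIST1H2AA and HIST1H2BA, a divergent pair, encode the H2A and H2B of the testis. The models of HIST1H2AK and HIST1H3D lie wholly inside exons of other annotated genes, those of HIST1H2AD, HIST1H2AM and HIST2H3PS2 lie there for 98.0%, 88.04% and 99.5% of their bases, and the other 4 share no base. How reads that fall on more than 1 gene were counted is not stated in the sources used here, so 0 reads in those 5 are no measure of their level.

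The annotated model also differed between genes with and without a measured level. Of the 38 genes whose model extends beyond the coding sequence, 17 reached a mean of 1 FPKM and 1 had no read, and of the 33 with a coding sequence alone, 8 reached it and 8 had no read. Of the 32 genes whose transcripts held the stem-loop, 16 reached 1 FPKM and 0 were unread, against 9 and 9 of the 39 without it. All 33 genes with a coding sequence alone are among these 39, since such a model leaves out the 3' end. The stem-loop counts thus largely repeat the split by model and do not show a part of the stem-loop itself. A poly-A signal (AATAAA or ATTAAA within the last 50 bases of a transcript, sense strand) was found in 23 genes, of which 11 reached 1 FPKM. The highest gene, HIST1H2BK, and HIST1H1C are both annotated by their coding sequence alone, so reads in their untranslated ends were not in the FPKM. A longer model also covers more bases on which a read can fall, and these counts are a description.

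**Figure D4:**
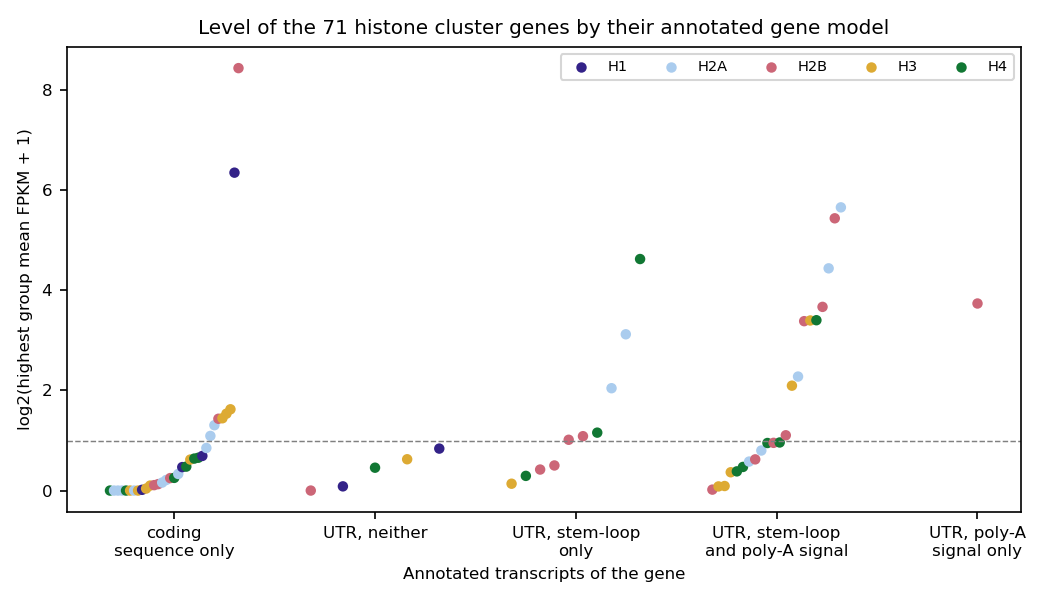
Highest group mean of each of the 71 histone genes, as log2(FPKM + 1), by what its GENCODE 29 transcripts hold, 1 point per gene coloured by class, with the dashed line at 1 FPKM; within a group of genes the points are sorted from low to high. HIST1H2BK and HIST1H1C, the highest genes, stand among the models with a coding sequence alone, where most others lie under the line.

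Many H2A and H2B genes lie head to head and share the stretch between their starts. In these data the 2 genes of a pair did not always change alike. Distances are those between the gene models of the tables. HIST1H2BJ and HIST1H2AG lie 291 bases apart there, and 247 bases apart by their RefSeq starts, all within both 250-base upstream windows. In BxPC3 HIST1H2BJ rose 5.12-fold while HIST1H2AG stood at 0.886 of its control level and was not called. HIST1H2BC and HIST1H2AC, 218 bases apart, both rose in BxPC3, 4.39-fold and 1.47-fold, and in PANC-1 HIST1H2AC fell while HIST1H2BC was not called. HIST1H2BK stood at 204.6 FPKM in BxPC3 controls, and its partner HIST1H2AH, 330 bases away, had 1 read there. HIST2H2BE stood at 11.2 FPKM and its partner HIST2H2AC at 0.239 FPKM in the same controls, whereas in the HIST3 cluster the H2A gene was the higher one (14.4 against 0.370 FPKM for HIST3H2BB). The difference in change within a pair was not tested.

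**Figure D5:**
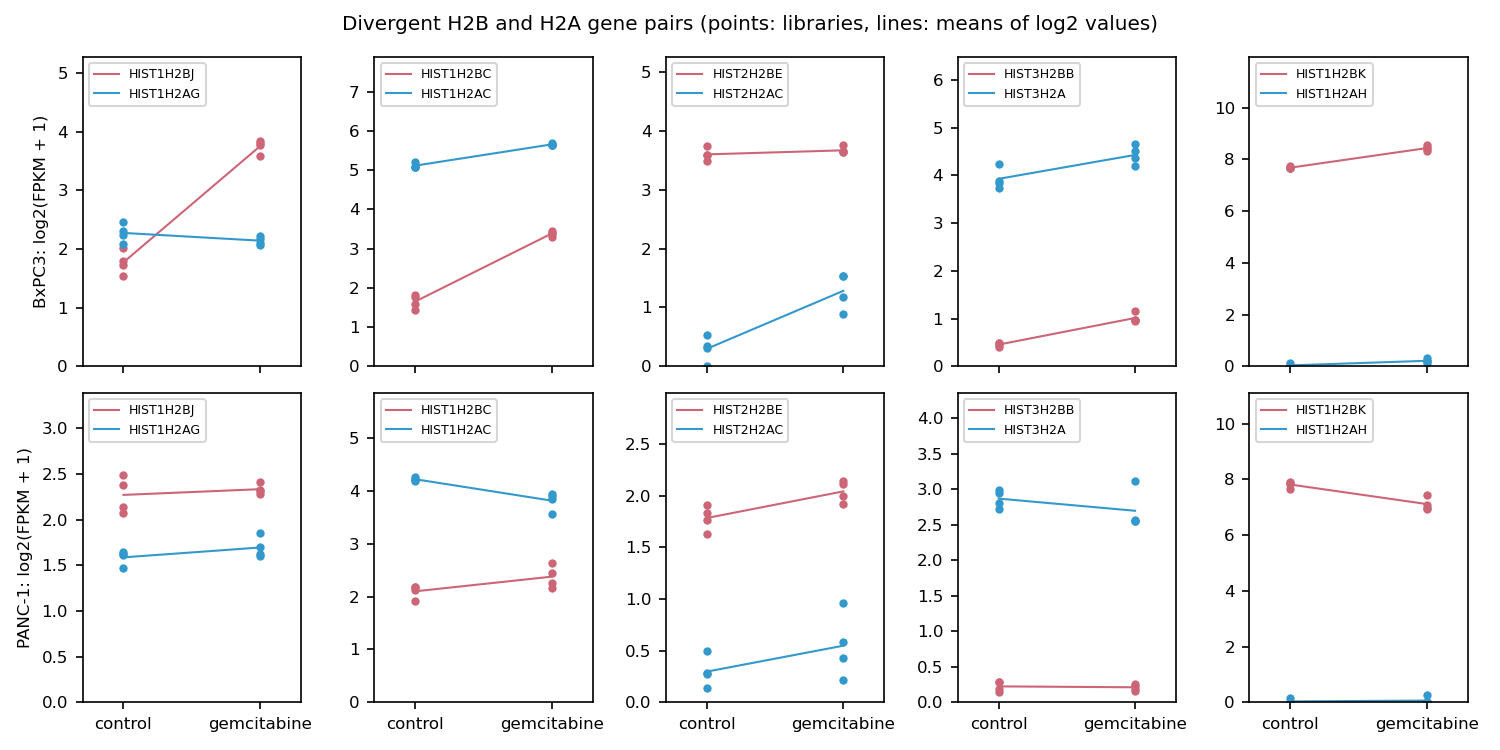
log2(FPKM + 1) of 5 head-to-head pairs in BxPC3 (top) and PANC-1 (bottom), the H2B gene in red and the H2A gene in blue; points are libraries, lines join the means of the log2 values, and each panel has its own axis from 0. In BxPC3 the line of HIST1H2BJ crosses that of HIST1H2AG, and HIST1H2AH lies near 0 under HIST1H2BK in both lines.

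Promoter windows of 250 bases upstream of the RefSeq start (GRCh38.p14) were found for 61 of the 71 genes and searched on both strands. The TATA box letters TATAAA were present in 41 of them (67.2%, against 11.1% of all 27305 promoters) and CCAAT in 51 (83.6% against 33.0%). The octamer ATTTGCAT was present in 21 (34.4% against 1.66%). These were 11 of 16 H2A, 9 of 13 H2B and 1 of 13 H3 windows and 0 of 6 H1 and 0 of 13 H4 windows. That H3 window, of HIST1H3D, is the same stretch on the same strand as the window of the H2A gene HIST1H2AD. The H1 box AAACACA was present in all 6 H1 windows and in none of the other 55, against 4.95% of all promoters. H4 windows, which are not shown, held CCAAT in 3 of 13. The octamer and the H1 box thus followed the class, while the TATA box occurred in every class. It was present in 3 of 6 H1, 12 of 16 H2A, 9 of 13 H2B, 10 of 13 H3 and 7 of 13 H4 windows. Head-to-head genes share windows, so these counts are not independent. Sequences are shown for HIST1H1C, HIST1H2AC, HIST1H2BK and HIST1H3H, the highest gene of 4 classes, and for HIST1H2BJ, chosen after its values were seen. Each is written 5′ to 3′ on the gene's strand, and the capitals mark the 4 motifs on either strand, fused where they overlap.
HIST1H1C (chr6:26056471-26056720, minus strand): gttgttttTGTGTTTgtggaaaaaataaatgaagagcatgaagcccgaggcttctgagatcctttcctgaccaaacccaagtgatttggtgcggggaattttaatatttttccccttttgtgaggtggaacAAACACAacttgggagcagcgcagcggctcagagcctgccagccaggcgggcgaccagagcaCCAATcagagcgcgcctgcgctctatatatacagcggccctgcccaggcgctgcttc
HIST1H2AC (chr6:26123922-26124171, plus strand): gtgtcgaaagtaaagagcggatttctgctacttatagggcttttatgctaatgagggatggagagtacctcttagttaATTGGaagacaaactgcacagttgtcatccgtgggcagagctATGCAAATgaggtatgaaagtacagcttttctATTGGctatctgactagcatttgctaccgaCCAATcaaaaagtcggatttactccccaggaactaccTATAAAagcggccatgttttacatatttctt
HIST1H2BK (chr6:27146859-27147108, minus strand): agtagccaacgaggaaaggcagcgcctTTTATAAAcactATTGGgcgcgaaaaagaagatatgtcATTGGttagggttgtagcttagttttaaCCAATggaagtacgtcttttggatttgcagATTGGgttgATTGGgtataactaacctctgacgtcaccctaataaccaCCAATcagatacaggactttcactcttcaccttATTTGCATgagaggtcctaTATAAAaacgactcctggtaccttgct
HIST1H2BJ (chr6:27132796-27133045, minus strand): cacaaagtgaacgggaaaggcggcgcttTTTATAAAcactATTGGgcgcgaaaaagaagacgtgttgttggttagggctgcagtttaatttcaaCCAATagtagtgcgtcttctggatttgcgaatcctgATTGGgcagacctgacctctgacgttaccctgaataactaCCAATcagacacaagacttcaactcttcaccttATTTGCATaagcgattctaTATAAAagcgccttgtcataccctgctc
HIST1H3H (chr6:27809801-27810050, plus strand): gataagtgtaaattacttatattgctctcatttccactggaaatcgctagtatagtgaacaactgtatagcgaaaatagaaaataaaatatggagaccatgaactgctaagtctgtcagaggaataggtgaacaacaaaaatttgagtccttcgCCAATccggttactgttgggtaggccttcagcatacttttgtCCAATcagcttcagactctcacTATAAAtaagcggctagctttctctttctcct
HIST1H1C shows the H1 box and a single CCAAT, HIST1H3H shows CCAAT and a TATA box, and the H2A and H2B genes add the octamer. HIST1H2BK and HIST1H2BJ have octamer and TATA box at like places near the start, and so has HIST2H2BE, whose window is not shown. In BxPC3 HIST1H2BK and HIST1H2BJ rose and HIST2H2BE was not called, and a link between motifs and change was not tested. A match is a description of letters and no measure of binding.

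Genes that make, handle or remove histones and their mRNAs were counted from lists written for this purpose. They are to be read against 37.3% higher and 36.1% lower of all genes tested in BxPC3, and 20.7% and 24% in PANC-1. These shares belong to the fits on all libraries. With a library left out the share of all genes is not given, so such counts cannot be read against them. A gene named for 1 line alone had one of the smallest p of its list there, and it can be called in the other line as well. Histone chaperones, which carry histones to DNA, had 19 of 25 tested genes higher and 2 lower in BxPC3 and 10 higher and 5 lower of 25 in PANC-1, with median log2 changes of 0.31 and 0.15. HJURP, the chaperone of the centromeric H3 variant, rose from 3.81 ± 0.186 to 10.6 ± 0.518 FPKM in BxPC3 and from 6.12 ± 0.350 to 27.2 ± 0.704 FPKM in PANC-1 (limma adjusted p = 6.24e-09 and 6.45e-08). ASF1B, a chaperone of new H3 and H4, rose 1.86-fold and 2.16-fold, and CHAF1A, a subunit of chromatin assembly factor, 1.86-fold and 1.88-fold in BxPC3 and PANC-1. TONSL, which reads new histone H4, rose 2.04-fold in BxPC3, and SSRP1, a subunit of the FACT chaperone, 1.30-fold in PANC-1. Without PANC-1 gemcitabine replicate 1 the PANC-1 counts were 15 higher and 6 lower, without control replicate 2 or 3 there were 7 higher, and without control replicate 1 or 4 there were 3 lower.

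Genes of histone gene transcription and S phase had 23 of 27 higher and 2 lower in BxPC3, and 18 of 26 higher and 1 lower in PANC-1, with medians of 0.67 and 0.46, where 37.3% and 20.7% of all genes tested were higher in the respective line. Cyclin A2, encoded by CCNA2, rose from 11.1 ± 0.126 to 29.8 ± 1.11 FPKM in BxPC3 and from 3.33 ± 0.249 to 16.7 ± 1.24 FPKM in PANC-1 (limma adjusted p = 8.85e-10 and 1.72e-07). MCM4, a subunit of the replicative helicase, rose 2.16-fold and 2.06-fold. CDC6, a loader of that helicase, and RRM2, a subunit of ribonucleotide reductase, rose 3.40-fold and 3.68-fold in BxPC3. The replication factors CDC45 and GINS2 rose 4.10-fold and 2.67-fold in PANC-1 and also 2.68-fold and 1.79-fold in BxPC3. NPAT, the coactivator of histone gene transcription, was not called in BxPC3 (2.37 ± 0.213 FPKM in controls and 2.30 ± 0.0745 FPKM with gemcitabine) or PANC-1 (5.32 ± 0.252 FPKM in controls and 6.31 ± 1.02 FPKM with gemcitabine), a gene chosen after its values were seen. Without PANC-1 gemcitabine replicate 1 there were 3 lower genes in PANC-1, and without replicate 3 there were 2.

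For 3' end processing of histone and other mRNAs, 12 of 23 genes were higher and 3 lower in BxPC3, and 4 higher and 4 lower in PANC-1, with medians of 0.13 and -0.02. The PANC-1 shares lie near the 20.7% and 24% of all genes tested, and the BxPC3 background is 37.3% higher and 36.1% lower. SRRT, a partner of the cap-binding complex, rose in both lines, by 1.64-fold in BxPC3 and by 1.32-fold in PANC-1. The cap-binding subunit NCBP1 and the cleavage factors CSTF2 and CPSF1 rose 1.53-fold, 1.36-fold and 1.24-fold in BxPC3. CSTF2 also rose 1.23-fold in PANC-1, where NCBP1 and CPSF1 were not called. In PANC-1 NELFE, a subunit of the elongation factor NELF, rose 1.63-fold, the endonuclease CPSF3 rose 1.35-fold, and CPSF4 fell to 0.645 of its control level. CPSF3 and CPSF4 rose 1.20-fold and 1.14-fold in BxPC3, where NELFE was not called. SLBP, chosen after its values were seen, rose from 35.5 ± 3.50 to 45.8 ± 2.24 FPKM in BxPC3 (limma adjusted p = 0.000616) and stood at 49.0 ± 1.79 FPKM in controls and 45.0 ± 3.98 FPKM with gemcitabine in PANC-1, where it was not called (limma adjusted p = 0.204). Without PANC-1 gemcitabine replicate 1 the PANC-1 counts were 9 higher and 5 lower, and the share of all genes in that fit is not given. Leaving out any other PANC-1 library left 1 to 2 lower genes, and leaving out BxPC3 control replicate 4 left 1 lower gene in BxPC3.

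For decay of histone mRNA, 9 of 15 genes were higher and 1 lower in BxPC3, and 1 was higher and 1 lower in PANC-1, with medians of 0.19 and -0.08, beside 37.3% higher and 36.1% lower of all genes in BxPC3 and 20.7% and 24% in PANC-1. ERI1, the exonuclease that trims the histone stem-loop, rose from 2.88 ± 0.251 to 5.08 ± 0.311 FPKM in BxPC3 (limma adjusted p = 3.89e-06). LSM1, EXOSC10 and the helicase UPF1 rose 1.31-fold, 1.37-fold and 1.20-fold there. In PANC-1 the exonuclease XRN2 rose 1.32-fold and UPF2, a partner of UPF1, fell to 0.709 of its control level, while LSM1 and DIS3 stood at 0.897 and 0.830 of theirs and were not called. XRN2, UPF2 and DIS3 rose 1.21-fold, 1.20-fold and 1.16-fold in BxPC3. Without PANC-1 gemcitabine replicate 1 the PANC-1 counts were 3 higher and 5 lower, and the share of all genes in that fit is not given.

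Histone genes that are also expressed outside S phase give, for the most part, ordinary polyadenylated mRNAs. Of 10 such genes tested in BxPC3, 4 were higher and 4 lower, near the 37.3% and 36.1% of all genes. Of 11 tested in PANC-1, 7 were higher and 2 lower, where 20.7% and 24% of all genes were so. CENPA, the centromeric H3 variant, rose in both lines, 3.06-fold in BxPC3 and by 3.63-fold in PANC-1. H1F0, a linker histone of resting cells, fell in BxPC3 (from 258 ± 2.29 to 157 ± 5.60 FPKM, limma adjusted p = 1.26e-07) and rose in PANC-1 (from 114 ± 1.43 to 156 ± 2.79 FPKM, limma adjusted p = 5.86e-05), the opposite of HIST1H2BK, HIST1H2AC and HIST1H4I. H2AFX, the H2A variant that is phosphorylated at DNA breaks, rose 2.07-fold in BxPC3, where the linker histone H1FX fell to 0.559 of its control level. H2AFV and H2AFY, further H2A variants, rose 1.33-fold and 1.33-fold in PANC-1.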

How the data were processed

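For each line the authors deposited a gene table of FPKM values, 1 column per library, with gene length in bases, per the file headers. The submitters' processing notes name CASAVA and HISAT2 but no version. They also name mm10, a mouse build, whereas the tables hold human genes with GENCODE 29 (GRCh38) lengths. The counting program, and whether it used strand, is not given in the sources used here. Reads were recovered from the FPKM steps: 100% of values were whole within 0.02 reads. Depth was 22152034 to 37777222 reads per library, and floors cover counting error only.

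Groups and replicate numbers came from the sample titles. For each line limma 3.58.1 in R 4.3.3 (trend and robust) was fitted alone to log2(FPKM + 1) of genes reaching 1 FPKM in 4 libraries or more. P-values were adjusted over all tested genes by Benjamini-Hochberg, with calls under 0.05. Differences between lines are the interaction term over 16 libraries. Class sums had no test. Tables and figures used pandas 2.3.3 and matplotlib 3.10.9. The fit was tested on simulated data.

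Values in every library are given for the 24 histone genes of highest group mean (as reads, or with 0 left unlisted, where nearly unread), and related lists are shown by up to 4 genes of smallest p per line. The members and lists were chosen with earlier results of these data known. Alternatives were other scalings, filters, pseudocounts and models, a replicate block, and each library left out.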

Additional observations from a re-analysis of the deposited data

Results flagged for a closer look

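In groups of 4 libraries, 8 of 91 groups of histone gene values held 1 library far from the other 3 by Dixon's test. Its chance rate of about 1 in 20 is for independent normal values. Some groups held few reads and the same libraries recur across genes, so the count cannot be set against that rate. BxPC3 control replicate 2 had HIST1H2AC at 35.96 FPKM, with the others at 32.9 to 33.1. PANC-1 gemcitabine replicate 1 had HIST3H2A at 7.66 FPKM (others 4.85 to 4.95) and HIST1H2BG at 1.59 FPKM (others 0.935 to 0.997). PANC-1 control replicate 4 had HIST1H2AI at 1.13 FPKM (others 0.156 to 0.318). PANC-1 gemcitabine replicate 4 had HIST1H2AE at 1.83 FPKM (others 1.27 to 1.34) and HIST1H2AL at 0.316 FPKM (others 0). BxPC3 gemcitabine replicate 1 had HIST1H2AL at 0.856 FPKM (others 1.19 to 1.25), and BxPC3 gemcitabine replicate 4 had HIST3H2BB at 1.25 FPKM (others 0.916 to 0.961).

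The change with gemcitabine differed between the lines for 17 of 19 histone genes by the limma interaction test at an adjusted p under 0.05. Of all genes tested, 51.8% were called. With limma-voom on the recovered reads HIST1H2AI, HIST1H2AE, HIST1H3B, HIST2H3D and HIST1H3E were lost. On the log2(FPKM + 1) scale, PANC-1 minus BxPC3, the difference was -1.92 for HIST1H2BJ, -1.59 for HIST1H4H, -1.46 for HIST1H2BK, -1.46 for HIST1H2BC and -1.25 for HIST1H4I. It was -1.05 for HIST1H3H, -1.05 for HIST1H3C, -0.95 for HIST1H2AC, -0.86 for HIST1H2BO, -0.80 for HIST1H2BD, -0.80 for HIST1H2AE, -0.80 for HIST1H2AI, -0.80 for HIST1H3B, -0.79 for HIST1H1C, -0.67 for HIST3H2A and -0.64 for HIST2H3D. It was 0.46 for HIST1H3E, the histone gene that fell in BxPC3. HIST1H2AE was nearly unread in BxPC3, and HIST1H3C and HIST2H3D in PANC-1, so their values restate the change in the other line.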

How the results depend on the processing

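Depth limits most of the 71 genes, of which 46 stayed below a mean of 1 FPKM in each group. Other scalings, models, filters and pseudocounts left 140 of 144 values of single genes in BxPC3, 102 of 104 in PANC-1 and 140 of 152 for the difference in their direction and on their side of the threshold. TPM scaling moved the median log2 change of all BxPC3 genes from 0.00443 to 0.0753 and the share of higher calls from 50.8% to 58.5%.

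Without the filter on low values 24 of 60 histone genes were higher in BxPC3, where 14.8% of the 36939 genes then tested were. The count of histone genes whose PANC-1 change lay above that of BxPC3 was 0 with limma-voom (where 12 lay below) and with a pseudocount of 0.1, and 2 without the filter. Without the highest gene of a class, the log2 ratio of the class sum was 0.71 for H2A, 0.55 for H2B, 0.72 for H3 and 1.49 for H4 in BxPC3, and 1.80 for H1, -0.14 for H2A, -0.43 for H2B and, reversed, 0.10 for H4 in PANC-1. TPM scaling gave 0.71 for H2A and 0.81 for H2B in BxPC3. The cause of these shifts was not tested.

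With each library left out in turn, BxPC3 had 1 to 2 lower histone genes and 1 to 3 lower genes of 3' processing. PANC-1 had 0 to 2 higher histone genes, 4 to 9 higher and 1 to 5 lower genes of 3' processing, 1 to 3 higher and 1 to 5 lower genes of decay, 7 to 15 higher and 3 to 6 lower chaperones and 1 to 3 lower genes of S phase. From 1 to 2 histone genes had a PANC-1 change above that of BxPC3. The shares of all genes called in these fits are not given, so the counts have no background beside them. The log2 change in PANC-1 ranged from -0.00189 to 0.13 for HIST1H2BJ and from -0.0292 to 0.0858 for HIST1H3H, neither called.

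No pairing by the shared replicate numbers was seen: deviations of same-numbered libraries correlated at -0.376 to 0.189. With 4 libraries per group and no test, this cannot exclude a pairing. With the number as a block, 14 histone genes were higher in BxPC3 and 3 in PANC-1, HIST1H2BC being added there (limma adjusted p = 0.0454), and for the difference 15 lay below and 1 above, HIST1H3B being lost.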
